A study of Mus musculus with 8 samples.

Results

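The lymphocytes of the liver were compared between mice of a steatohepatitis model (HFD+F+CCl4) and control mice. A barcode was taken as a lymphocyte if it had over 500 detected genes, under 25% of its UMIs (unique molecular identifiers, each marking 1 captured mRNA molecule) from mitochondrial genes, at least 3 UMIs summed over Cd3d, Cd3e, Cd3g, Cd79a and Cd79b, and 0 UMIs of the macrophage receptor gene Csf1r. The rule gave 10488 lymphocytes among the 46912 kept cells of 5 mice, and 15045 among the 80474 kept cells of all 8 mice of the study. Cells of dissociated, perfused liver had been loaded unsorted on the 10x Chromium 3' platform. All mice were wild-type C57BL/6. The 3 HFD+F+CCl4 mice were fed a high-fat diet with fructose solution and were injected intraperitoneally with carbon tetrachloride (CCl4), a hepatocyte toxin, once a week, and the 2 control mice were fed a normal diet. Diet, fructose and CCl4 were always given together, so their parts cannot be told apart, and no age of the mice was stated in the labels or methods read. 3 further mice (WD+F+CCl4, western diet with fructose and CCl4) entered the statistical fits but were not compared. They shaped the estimated spread between mice, the scaling and the choice of genes tested.

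CD3d, CD3e and CD3g are the signalling chains that carry the T cell receptor to the cell surface, and CD79a and CD79b do the same for the antigen receptor of B cells. The liver holds many T, NKT and B cells, which drain from blood and patrol the sinusoids. Regulatory T cells, which depend on the transcription factor FOXP3, restrain inflammation, whereas T cells under lasting antigen exposure gain inhibitory receptors such as PD-1 and TIM-3.

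The libraries differed in depth and in background. Control replicate 2 was the shallowest, with 6135827 UMIs and a median of 992.5 UMIs in its kept cells, whereas control replicate 1 held 36699315 UMIs and the HFD+F+CCl4 libraries between 49738207 and 55186165. Lymphocytes had a median of 2587 and 1247.5 UMIs in the control mice and of 2373, 2711 and 2823 in the HFD+F+CCl4 mice. Only 8 of the 10488 lymphocytes had a barcode sequence that was also a lymphocyte of another of the 5 libraries. Transcripts that hepatocytes make for secretion were found in lymphocytes of every library, as in free RNA of lysed cells, and at least 1% of the UMIs came from 22 such genes in 20.5% and 31.5% of the control lymphocytes and in 14.3%, 4.3% and 0.367% of the HFD+F+CCl4 lymphocytes. The 22 genes include Apoe, which macrophages also make, so these shares need not be of hepatocyte RNA alone. Some features stood far apart between both control mice and all HFD+F+CCl4 mice, in lymphocytes and in Csf1r-expressing cells alike. Separation of the groups was not limited to these features. Of all genes tested in lymphocytes, 17.5% were higher and 19.8% lower in every HFD+F+CCl4 mouse than in both control mice. The mitochondrial gene mt-Nd3 was at 4.46 and 5.17 CPM (counts per total UMIs of the cells summed, in the usual scaling) in control Csf1r-expressing cells with 0 rule UMIs, and at 1261, 763 and 652 CPM in those of the HFD+F+CCl4 mice. In lymphocytes it was at 3.19 and 7.24 against 1327, 813 and 724 CPM. The mitochondrial pseudogene Gm28438 showed the opposite, with 456 and 243 CPM in control lymphocytes and 2.10, 0.746 and 0.256 CPM in those of the HFD+F+CCl4 mice. Because pseudogenes share reads with their near-identical parents, these rows, with mt-Nd4l, mt-Co2, mt-Co3, Gm10076 and Rpsa-ps10, are uncertain and are not read as expression of lymphocytes. A difference between control and HFD+F+CCl4 libraries in how they were made or processed cannot be told apart from the groups, which bears on every comparison with control given here.

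The label of the cells was checked against genes that the rule did not use. Lymphocytes carried the T cell receptor constant chains Trac at 451 CPM and Trbc2 at 1028 CPM and the B cell gene Ms4a1 at 278 CPM, against 4.52, 14.8 and 2.47 CPM in the 27197 kept cells with 0 rule UMIs. Just inside the threshold, the 1181 cells with 3 rule UMIs held Trac at 349 CPM, and just outside it the 1615 cells with 2 rule UMIs held 262 CPM. A further 1708 cells had at least 3 rule UMIs but also Csf1r, 391 and 96 in the control mice, which had 6873 and 1008 members, and 250, 455 and 516 in the HFD+F+CCl4 mice, which had 329, 1187 and 1091. Relative to its members, the rule thus left out more such cells in each HFD+F+CCl4 mouse than in either control mouse. They held the myeloid lysozyme Lyz2 at 4346 CPM, against 325 CPM in the members.

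Lymphocytes made up 63.7% and 24.2% of the kept cells in the control mice and 2.94%, 11.7% and 10.2% in the HFD+F+CCl4 mice. Both control mice were above all HFD+F+CCl4 mice, with means of 43.9% ± 27.9 (SD, n = 2) and 8.30% ± 4.70 (SD, n = 3), but the exact two-sided permutation test over mice gave p = 0.1, the smallest value that 3 against 2 mice allow. At 5 rule UMIs in place of 3, control replicate 2 was at 9.45%, within the range of the HFD+F+CCl4 mice, and the exact permutation p was 0.2. Among cells with over 1000 genes, the control mice were at 70.1% and 57.8% and the HFD+F+CCl4 mice at 2.99%, 11.6% and 10.3%, so control replicate 2 moved by more than 1.5 times and the groups did not overlap (exact permutation p = 0.1). A share of kept cells depends on the number of other cells in the suspension as well, so fewer lymphocytes and more other cells cannot be told apart.

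The make-up of the lymphocytes differed too. Lymphocytes with at least 3 UMIs of the Cd3 genes and 0 of the Cd79 genes (CD3 cells) were 45.5% and 29.9% of the control lymphocytes and 72.0%, 73.9% and 94.0% of the HFD+F+CCl4 lymphocytes (exact permutation p = 0.1, the smallest possible). Cells with at least 3 UMIs of the Cd79 genes and 0 of the Cd3 genes (CD79 cells) were 29.3% and 17.0% of the control and 23.1%, 20.6% and 2.57% of the HFD+F+CCl4 lymphocytes, which overlapped (exact permutation p = 0.6). The remainder, with UMIs of both sets, was 25.2% and 53.2% in control mice and 4.86%, 5.48% and 3.39% in HFD+F+CCl4 mice. These cells count as neither class, so a large remainder lowers the CD3 share by definition. As an alternative chosen after seeing the data, mixed cells were given to the set with over 2 times the UMIs of the other. The CD3 share was then 56.2% and 43.6% in control mice and 74.8%, 78.3% and 97.3% in HFD+F+CCl4 mice. Cells with both sets were the largest class in control replicate 2, the shallowest library. By the rank of their doublet score (Scrublet), 8.96% and 3.27% of the control lymphocytes fell in the range set aside for doublets. In the HFD+F+CCl4 mice 4.26%, 3.71% and 2.57% of the lymphocytes did. The size of that range was set in advance, at 0.8% of a library's kept cells for every 1000 kept cells. It was thus smallest in control replicate 2, with 4168 kept cells, against 10788 in control replicate 1 and 10123 to 11179 in HFD+F+CCl4 mice. These shares therefore do not measure how many doublets a library held. The part of doublets or free RNA in the mixed class was not tested. To keep the changing mix out of the comparison, expression was compared within the 5567 CD3 cells and the 2537 CD79 cells as well as over all lymphocytes.

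**Figure D1:**
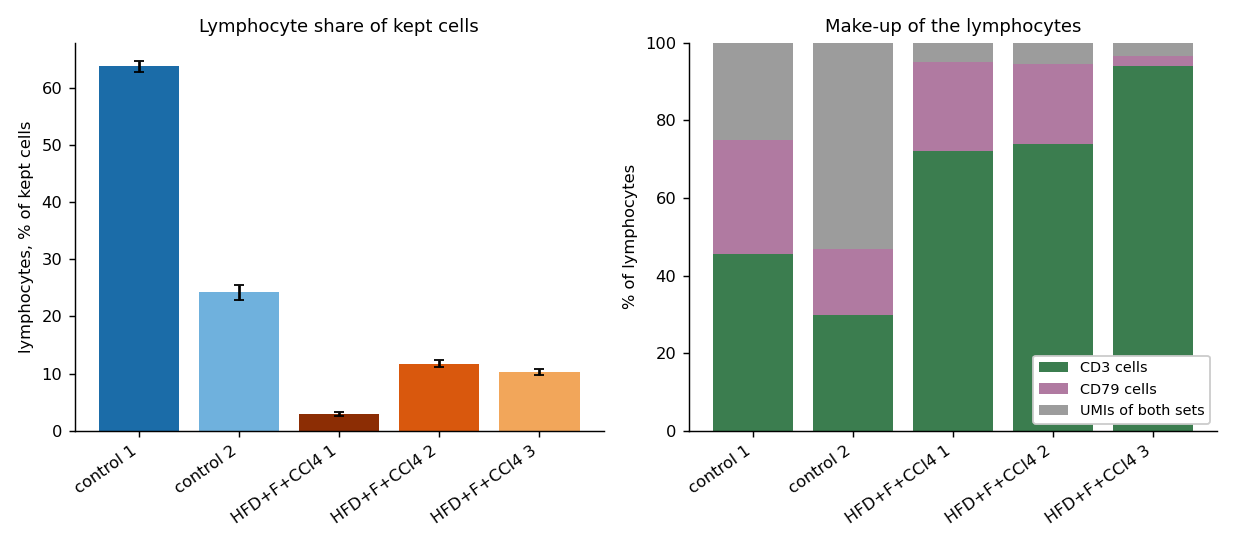
Left, lymphocytes as a percent of kept cells in each mouse, with exact 95% binomial intervals that cover counting error only; right, the percent of those lymphocytes that were CD3 cells, CD79 cells or cells with UMIs of both sets. The control mice stand at 63.7% and 24.2% and the HFD+F+CCl4 mice at 2.94% to 11.7%, and cells with both sets of UMIs reach 53.2% in control replicate 2.

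UMIs were summed per mouse and compared with edgeR's quasi-likelihood test with Benjamini-Hochberg adjustment over all genes tested. Among all lymphocytes, 221 of 13262 genes passed an adjusted p of 0.05 (1.67%), 116 higher and 105 lower in HFD+F+CCl4 mice. Among CD3 cells, 290 of 12176 genes passed (2.38%), 155 higher (1.27%) and 135 lower (1.11%), and among CD79 cells 57 of 8247 passed (0.691%), 26 higher (0.315%) and 31 lower (0.376%). The median log2 fold change of all genes tested was 0.01 in CD3 cells. The number of calls changed when 1 mouse was left out. Leaving a mouse out also shrinks its group, to 1 mouse for control, so a lost call alone does not show that it rested on that mouse. None of the 67 named genes called in CD3 cells changed direction in these fits. They were chosen as called with all of these mice, so their kept direction is no independent support. In CD3 cells 15 genes passed without control replicate 1, 77 without control replicate 2, 415 without HFD+F+CCl4 replicate 1, 56 without HFD+F+CCl4 replicate 2 and 58 without HFD+F+CCl4 replicate 3. The 9 genes that passed whichever mouse was left out were Dtx1, Atp1b1, Iglc2, Mup11, Rn7sk, mt-Nd3, mt-Nd4l, Gm10076 and Gm28438, which are named here after their values were seen. Of these 9, mt-Nd3, mt-Nd4l, Gm10076 and Gm28438 are among the rows called uncertain above, and Iglc2 and Mup11 are genes of B cells and hepatocytes. The p-values measure the spread between these mice only. Levels of single genes in these comparisons are CPM after TMM scaling by edgeR. Levels in Csf1r-expressing cells and sums over lists are CPM of all UMIs without scaling. In control replicate 2 the CD3 cells summed to only 601784 UMIs and the CD79 cells to 254831. In HFD+F+CCl4 replicate 1 these sums were 671337 and 210083, and the CD79 cells of HFD+F+CCl4 replicate 3 summed to 142627. Levels of a few CPM in control replicate 2, as for Rgs16, Itgb8, Il1rl1, Ikzf4 and Penk in CD3 cells, thus rest on few UMIs. So do Itgb8 and Ikzf4 in CD3 cells of HFD+F+CCl4 replicate 1, and Il9r and Klf3 in CD79 cells of HFD+F+CCl4 replicate 3.

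Genes of regulatory T cells were higher in the CD3 cells of HFD+F+CCl4 mice. Of 12 tested genes of the list, 6 rose (against 1.27% of all genes tested), 0 fell and 6 did not pass, and the median log2 fold change was 2.33. In 8 of the 12, every HFD+F+CCl4 mouse was above both control mice, as in 17.6% of all genes. Foxp3, the transcription factor that defines regulatory T cells (chromosome X, 7573644 to 7595245, GRCm38), was at 13.3 and 7.29 CPM in control mice and at 62.7, 66.7 and 107 CPM in HFD+F+CCl4 mice. The groups did not overlap, and Foxp3 rose by 2.75 ± 0.33 on the log2 scale (SE, edgeR adjusted p = 0.0063, 0.0769 without control replicate 1 and 0.00664 to 0.0362 without each of the other mice). Tnfrsf4, the costimulatory receptor OX40, was at 20.5 and 13.1 CPM against 99.4, 130 and 191 CPM. It also stood apart in every mouse, with a log2 fold change of 2.94 ± 0.36 (edgeR adjusted p = 0.00687). In Csf1r-expressing cells with 0 rule UMIs, Foxp3 was at most at 0.326 CPM. Sums over cells do not tell whether more cells carried Foxp3 or each cell carried more of it, and likewise fewer cells of a type and less RNA per cell cannot be told apart.

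Among the other regulatory T cell genes of the list, the transcription factor Ikzf2 (Helios) was at 193 and 93.4 CPM in control CD3 cells and at 351, 332 and 393 CPM in HFD+F+CCl4 mice (log2 fold change 1.28 ± 0.28, edgeR adjusted p = 0.0497). Its relative Ikzf4 (Eos) was at 6.54 and 2.92 against 10.9, 58.1 and 55.3 CPM (2.92 ± 0.61, edgeR adjusted p = 0.0413), so HFD+F+CCl4 replicate 1 was closer to the control mice than to its own group. Itgb8, the integrin chain that releases active TGF-beta from its latent complex, was at 1.36 and 1.46 against 12.3, 6.42 and 17.8 CPM (3.11 ± 0.62, edgeR adjusted p = 0.0343). Capg, an actin-capping protein, was at 31.2 and 43.8 against 185, 196 and 298 CPM (2.68 ± 0.36, edgeR adjusted p = 0.0103). Csf1r-expressing cells also carried Capg, at 240 and 176 CPM in control and 318, 290 and 291 CPM in HFD+F+CCl4 mice, and their part in this rise was not tested. The list did not move as one. The IL-2 receptor chain Il2ra was at 84.0 and 54.0 against 83.1, 63.5 and 87.2 CPM and the receptor Tnfrsf18 (GITR) at 145 and 89.0 against 99.4, 183 and 256 CPM, and in both genes the groups overlapped. Without control replicate 1, 0 of the 6 risen genes passed (edgeR adjusted p between 0.0544 and 0.264, median log2 fold change of the list 2.18). Of the 6, 3 passed without control replicate 2, 5, 4 and 3 without HFD+F+CCl4 replicates 1, 2 and 3, and 5 without the cells rich in liver-secreted RNA.

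Counted as cells after each was thinned to 1000 UMIs, so that depth was equal, lymphocytes with a Foxp3 UMI were 31 of 4307 (0.72%) and 1 of 430 (0.233%, exact 95% interval 0.00589 to 1.29%) in control mice. They were 8 of 174 (4.60%, 2.01 to 8.86%), 39 of 774 (5.04%, 3.61 to 6.82%) and 63 of 811 (7.77%, 6.02 to 9.83%) in HFD+F+CCl4 mice. Each interval of the latter lay above those of the control mice. The intervals cover counting error within a mouse only, and these shares were not tested over mice. The share in Csf1r-expressing cells at the same depth was at most 0.31% in any of the 5 mice. Unthinned, the shares were 1.43% and 0.893% against 6.38%, 7.75% and 12.8%. Thinning left out cells under 1000 UMIs, of which control replicate 2 had 2137 among its 4168 kept cells and the others between 318 and 647. The rule was applied again to the thinned counts, which is why fewer lymphocytes remained than the 6873, 1008, 329, 1187 and 1091 at full depth. These shares are of T and B cells together. After thinning, CD3 cells were 43.0% and 32.8% of the control and 62.1%, 74.3% and 95.6% of the HFD+F+CCl4 lymphocytes. The part of this mix in the shares of Foxp3, and of Cd8a, Pdcd1, Gzmk and Klrb1c below, was not tested.

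Genes of T cell activation and exhaustion gave few calls. Of 15 checkpoint genes tested in CD3 cells, 3 rose (1.27% of all genes), 0 fell and 12 did not pass, with a median log2 fold change of 2.59, and in 12 of the 15 every HFD+F+CCl4 mouse was above both control mice (17.6% of all genes). Havcr2, the inhibitory receptor TIM-3, was at 1.44 and 5.84 CPM in control and 21.8, 54.5 and 64.7 CPM in HFD+F+CCl4 mice (log2 fold change 4.65 ± 0.97, edgeR adjusted p = 0.0416). Rgs16, which dampens signalling of G protein-coupled receptors, was at 1.44 and 1.46 against 36.8, 55.2 and 65 CPM (5.18 ± 0.97, edgeR adjusted p = 0.0297). Nr4a2, a nuclear receptor induced by antigen stimulation, was at 0.934 and 5.84 against 74.9, 55.8 and 83.0 CPM (5.63 ± 1.24, edgeR adjusted p = 0.0482). In all 3 genes the lowest HFD+F+CCl4 mouse was above the highest control mouse, but the levels of control replicate 2 rest on few UMIs. None of the 3 calls held without control replicate 1 (edgeR adjusted p 0.276 to 0.353), without control replicate 2 (0.0985 to 0.108), or without HFD+F+CCl4 replicates 2 (0.0792 to 0.119) or 3 (0.0765 to 0.117), and 2 held without HFD+F+CCl4 replicate 1.

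Pdcd1, which encodes PD-1, was at 6.80 and 7.29 CPM against 66.7, 164 and 228 CPM, and did not pass (log2 fold change 4.51 ± 1.07, edgeR adjusted p = 0.0637). Lag3 was at 6.63 and 11.7 against 83.1, 224 and 326 CPM (edgeR adjusted p = 0.0878). Tox, a transcription factor of exhausted T cells, was at 35.3 and 39.4 against 117, 321 and 294 CPM (edgeR adjusted p = 0.0634). In these genes the groups did not overlap, yet HFD+F+CCl4 replicate 1 stood at less than the other 2 mice of its group. The same order of the HFD+F+CCl4 mice held for Cd8a, a chain of the CD8 coreceptor of cytotoxic T cells, at 56.3 and 105 CPM in control and 91.3, 437 and 539 CPM in HFD+F+CCl4 mice, which overlapped (edgeR adjusted p = 0.107). Cd4 was at 72.5 and 72.9 against 70.8, 69.9 and 91.9 CPM. At 1000 UMIs per cell, 3.06% and 8.60% of the control lymphocytes and 2.87%, 26.4% and 31.2% of the HFD+F+CCl4 lymphocytes had a Cd8a UMI, with 7.26% and 9.92% against 11.2%, 33.8% and 36.0% unthinned, so HFD+F+CCl4 replicate 1 was close to the control mice. In thinned Csf1r-expressing cells the Cd8a share was 0.929% and 6.25% (4 of 64 cells) in control mice and at most 0.362% in HFD+F+CCl4 mice, so that of control replicate 2 was near the share in its own lymphocytes. Pdcd1 UMIs were found in 0.511% and 1.40% against 6.90%, 12.5% and 19.4% of the thinned lymphocytes, in 1.54% and 0.794% against 9.42%, 23.8% and 32.3% of the unthinned ones, and in at most 0.201% of the Csf1r-expressing cells.

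**Figure D2:**
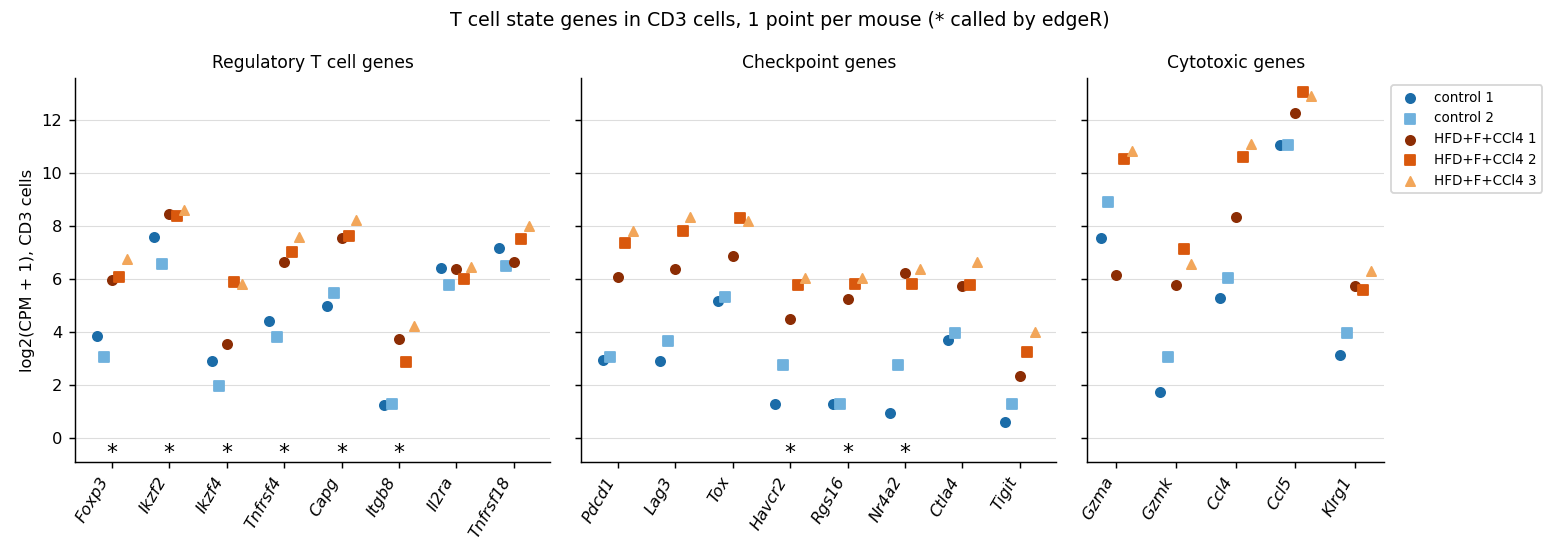
Level of 21 genes in CD3 cells as log2(CPM + 1), with 1 point per mouse, control mice in blue and HFD+F+CCl4 mice in orange and brown; a star marks an edgeR adjusted p under 0.05. Foxp3 stands at 62.7 to 107 CPM in HFD+F+CCl4 mice and at 7.29 and 13.3 CPM in control mice, whereas Il2ra and Tnfrsf18 overlap.

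Of 16 cytotoxic effector genes, 0 passed in CD3 cells in either direction, with a median log2 fold change of 1.61. In 7 of the 16 every HFD+F+CCl4 mouse was above both control mice, as in 17.6% of all genes. The chemokine Ccl4 was at 38.5 and 65.6 CPM against 328, 1565 and 2214 CPM (edgeR adjusted p = 0.0584), and Gzmk, which encodes granzyme K, was at 2.38 and 7.29 against 54.5, 140 and 95.3 CPM (edgeR adjusted p = 0.0748). Gzma, which encodes granzyme A, was at 186 and 489 CPM against 70.8, 1500 and 1826 CPM, so HFD+F+CCl4 replicate 1 was below both control mice. The killer lectin-like receptor Klrg1 did not pass in CD3 cells (edgeR adjusted p = 0.054). At 1000 UMIs per cell, Gzmk was found in 0.116% and 0% of the control lymphocytes, where a limit of 3 counts for 0 of 430 cells allows up to 0.698%, and in 3.45%, 10.3% and 9.0% of the HFD+F+CCl4 lymphocytes. Unthinned, its shares were 0.407% and 0.794% against 6.99%, 19.5% and 17.4%, and in thinned Csf1r-expressing cells at most 0.0517%. In the T cell receptor and signalling list, 0 of 19 genes passed in CD3 cells, with a median of 0.18 on the log2 scale. Trac was at 608 and 543 CPM against 485, 559 and 661 CPM, which overlapped.

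Among the helper T cell genes, 2 of 18 tested rose (against 1.27% of all genes), 0 fell and 16 did not pass, with a median log2 fold change of 0.34. Il1rl1, the receptor of the alarmin IL-33, was at 2.63 and 1.46 CPM in control CD3 cells and 17.7, 18.3 and 26.7 CPM in HFD+F+CCl4 mice (3.11 ± 0.45, edgeR adjusted p = 0.014). All 3 HFD+F+CCl4 mice were above both control mice. The call of Il1rl1 was lost without control replicate 1 (edgeR adjusted p = 0.148), control replicate 2 (0.0506) and HFD+F+CCl4 replicate 3 (0.0636). Among 10 gamma-delta T cell genes 1 rose (against 1.27% of all genes), the variable segment Trgv2, at 49.5 and 39.4 against 89.9, 104 and 148 CPM (1.34 ± 0.29, edgeR adjusted p = 0.048). It passed without HFD+F+CCl4 replicate 1 but not without any of the other 4 mice (edgeR adjusted p 0.111 to 0.199).

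Of 11 chemokine receptors tested, 1 rose (against 1.27% of all genes) and 1 fell (against 1.11%). Ccr9, the receptor that draws lymphocytes to the gut and thymus, was at 114 and 172 CPM in control CD3 cells and at 13.6, 26.3 and 14.2 CPM in HFD+F+CCl4 mice. Both control mice were well above all HFD+F+CCl4 mice, and Ccr9 fell by 2.89 ± 0.38 on the log2 scale (edgeR adjusted p = 0.00933, 0.0544 without control replicate 1, and under 0.05 without each of the other 4 mice). Ccr6, a receptor of IL-17-producing and B cells, was at 2.80 and 0 CPM against 15.0, 15.4 and 37.8 CPM (3.29 ± 0.71, edgeR adjusted p = 0.0469), and its call was lost without any 1 mouse other than HFD+F+CCl4 replicate 1 (edgeR adjusted p 0.0849 to 0.208). Of 16 cytokine genes 1 rose and 1 fell, beside the same shares of all genes (1.27% and 1.11%). Cd40lg, the T cell signal to B cells and myeloid cells, was at 87.4 and 52.5 against 23.2, 16.4 and 17.5 CPM (-1.99 ± 0.38, edgeR adjusted p = 0.031). Tgfb1, the cytokine that drives fibrosis and tolerance, was at 86.7 and 61.3 against 263, 157 and 161 CPM (1.32 ± 0.26, edgeR adjusted p = 0.0338). Neither passed without control replicate 1 (edgeR adjusted p 0.244 for Cd40lg and 0.148 for Tgfb1), control replicate 2 (0.0551 and 0.164), HFD+F+CCl4 replicate 2 (0.124 and 0.0699) or HFD+F+CCl4 replicate 3 (0.111 and 0.0674). Macrophage RNA was also found in CD3 cells, as given below, and its part in the rise of Tgfb1 was not tested. In the TGF-beta pathway list 0 of 10 genes passed (edgeR).

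Of 19 NK and NKT cell genes, 0 rose, 1 fell and 18 did not pass, with a median log2 fold change of -0.45. Over all genes tested in CD3 cells, 1.11% fell. The fallen gene was Il2rb, the receptor chain that carries IL-2 and IL-15 signals, at 1118 and 837 against 500, 489 and 529 CPM (-0.95 ± 0.20, edgeR adjusted p = 0.0459, and 0.0592 to 0.242 with any 1 mouse left out). Thinned to 1000 UMIs, the NK receptor gene Klrb1c was found in 10.3% and 13.5% of the control lymphocytes and in 4.02%, 3.10% and 2.10% of the HFD+F+CCl4 lymphocytes. Unthinned, its shares were 25.7% and 19.2% against 10.9%, 6.91% and 7.15%, and it was in 1.86% and 3.12% of the thinned control Csf1r-expressing cells. Among genes of naive and recirculating lymphocytes 0 of 13 passed, with a median of -0.62, and the homing receptor Ccr7 was at 53.8 and 59.8 against 17.7, 16.4 and 23.6 CPM (edgeR adjusted p = 0.139). Of 14 genes of tissue residence, 1 fell: Itga1, the collagen-binding integrin chain CD49a, at 116 and 112 against 77.6, 60.6 and 62.2 CPM (-0.80 ± 0.17, edgeR adjusted p = 0.042, and 0.107 to 0.205 without any 1 mouse other than HFD+F+CCl4 replicate 1). In the cell cycle list 0 of 18 genes passed, and 12 had every HFD+F+CCl4 mouse above both control mice (17.6% of all genes).

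**Figure D3:**
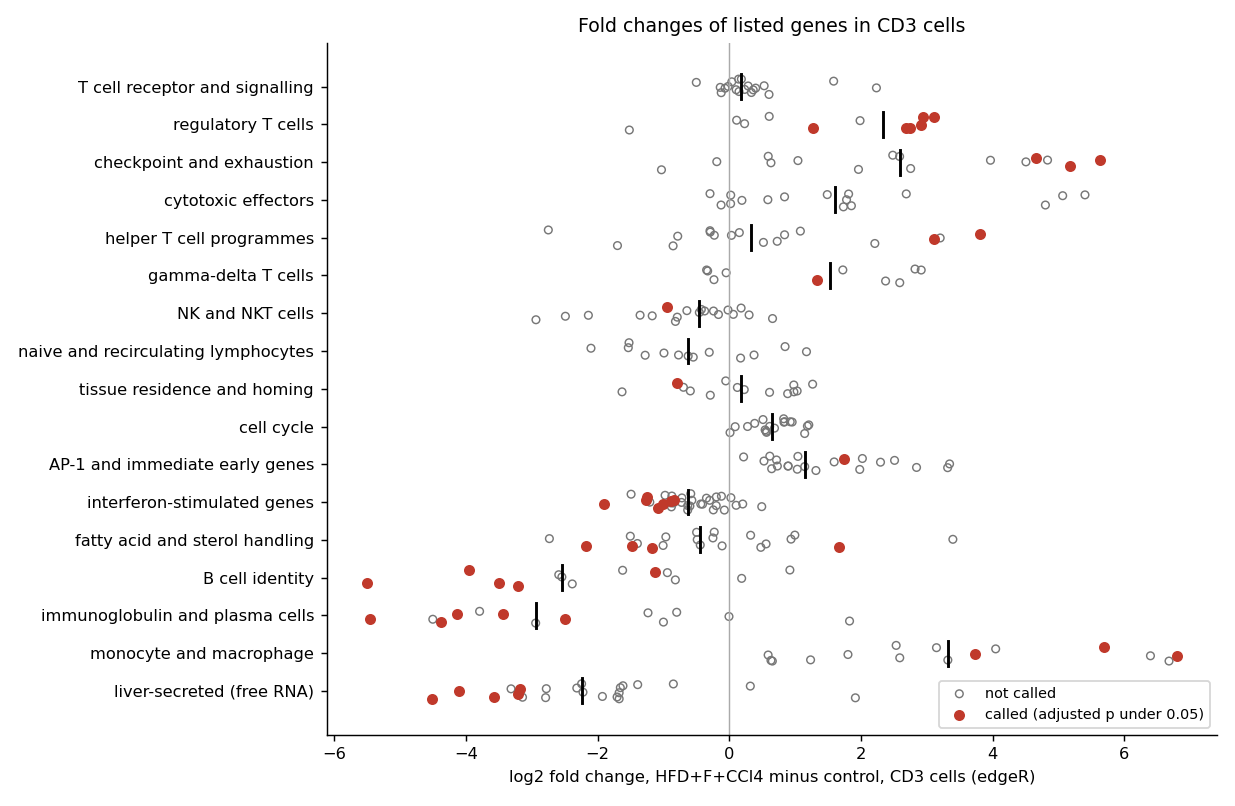
Log2 fold change (HFD+F+CCl4 minus control, edgeR) in CD3 cells for the tested genes of 17 lists that had over 3 UMIs in each group; filled red points passed an adjusted p of 0.05, open points did not, and the black bar is the median of all tested genes of the list. The regulatory T cell list has its median at 2.33 and the interferon-stimulated list at -0.63.

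Outside the lists, genes of the CD3 cells were named by the size of their change. Only called genes with an average log2 CPM over 5 and no overlap between the groups were taken. That the groups stood apart in these genes was thus set by the choice and adds no support. The falls included Dtx1, an E3 ubiquitin ligase and Notch target (chromosome 5, 120680202 to 120711927, minus strand). Dtx1 was at 137 and 146 CPM in control CD3 cells and at 24.5, 23.1 and 15.8 CPM in HFD+F+CCl4 mice. The mice of each group were close together, and Dtx1 fell by 2.78 ± 0.23 on the log2 scale (edgeR adjusted p = 0.00122, and 0.00241 to 0.041 with any 1 mouse left out). P2rx7, a channel opened by extracellular ATP, was at 151 and 106 against 39.5, 39.8 and 37.2 CPM (-1.76 ± 0.20, edgeR adjusted p = 0.00624). Art2b, the surface enzyme that couples NAD to P2RX7 on mouse T cells, was at 180 and 140 against 38.1, 54.8 and 52.2 CPM (-1.70 ± 0.19, edgeR adjusted p = 0.00624). Both genes were higher in each control mouse than in any HFD+F+CCl4 mouse, and both passed with any 1 mouse left out except control replicate 1 (edgeR adjusted p = 0.0717 for each). The rises were led by Penk, which encodes proenkephalin, at 2.55 and 2.92 against 34.1, 94.0 and 123 CPM (5.05 ± 0.89, edgeR adjusted p = 0.024). Casp1, the inflammasome protease, was at 7.65 and 10.2 against 42.2, 51.6 and 61.4 CPM (2.69 ± 0.35, edgeR adjusted p = 0.00827). Lcn2, an iron-carrier protein that myeloid cells and hepatocytes also make, was at 2.29 and 4.38 against 9.53, 47.2 and 56.9 CPM (3.99 ± 0.83, edgeR adjusted p = 0.0404). Without control replicate 1, the edgeR adjusted p was 0.237 for Penk, 0.155 for Casp1 and 0.333 for Lcn2. Casp1 passed without each of the other mice, and Penk and Lcn2 passed only without HFD+F+CCl4 replicate 1.

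Interferon-stimulated genes were lower in the CD3 cells of HFD+F+CCl4 mice. Of 35 tested, 0 rose, 7 fell (against 1.11% of all genes) and 28 did not pass, with a median log2 fold change of -0.63. In 21 of the 35 every HFD+F+CCl4 mouse was below both control mice, as in 17.7% of all genes, and in 1 it was above. The promoters of the fallen genes are shown because the list is defined by a shared inducer, whose response element has the core GAAA, any 2 bases, GAAA. In RefSeq promoters (GRCm38.p6), 27 of the 35 genes had an entry, and the core was searched on both strands in the 250 bases before the start. It was present in 16 of the 27 (59.3%), against 936 of 27025 genes (3.46%), and in 4 of the 6 fallen genes with an entry against 12 of the 21 that did not pass. The stretches around the 4 matches, read 5' to 3' along the gene with the matched bases in capitals, were at chr11:58199497-58199555 (plus strand) for Igtp, chr11:48871421-48871475 (minus strand, 2 overlapping matches) for Irgm1, chr3:142620579-142620638 (plus strand, match on the opposite strand) for Gbp2 and chr1:173491324-173491383 (minus strand) for Ifi206.
Igtp: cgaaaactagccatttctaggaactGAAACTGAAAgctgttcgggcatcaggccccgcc
Irgm1: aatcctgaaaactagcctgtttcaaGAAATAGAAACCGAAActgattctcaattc
Gbp2: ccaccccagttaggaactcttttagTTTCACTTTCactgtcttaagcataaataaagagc
Ifi206: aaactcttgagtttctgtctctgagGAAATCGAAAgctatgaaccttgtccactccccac
The match ended 25 bases before the start in Igtp, 15 in Irgm1, 50 in Gbp2 and 31 in Ifi206. A match is a description of these letters and was not tested as a site.

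Igtp, an interferon-inducible GTPase of defence against intracellular pathogens, was at 224 and 179 CPM in control CD3 cells and at 57.2, 42.7 and 64.4 CPM in HFD+F+CCl4 mice. The groups were far apart, and Igtp fell by 1.90 ± 0.21 on the log2 scale (edgeR adjusted p = 0.00624). Irgm1, a GTPase of the same family, was at 82.9 and 86.1 against 30.0, 36.2 and 37.8 CPM (-1.25 ± 0.22, edgeR adjusted p = 0.024). The guanylate-binding proteins Gbp2, at 108 and 65.6 against 34.1, 39.5 and 51.4 CPM (-1.08 ± 0.24, edgeR adjusted p = 0.0482), and Gbp4, at 180 and 174 against 83.1, 98.2 and 103 CPM (-0.89 ± 0.17, edgeR adjusted p = 0.0289), fell too. So did the DNA-sensing family members Ifi206, at 104 and 127 against 42.2, 47.8 and 49.995 CPM, and Ifi209, at 137 and 120 against 53.1, 60.3 and 75.3 CPM, and the RNA sensor Ddx58, at 84.1 and 72.9 against 36.8, 49.7 and 44.2 CPM, with edgeR adjusted p of 0.0205, 0.0338 and 0.042. Other members of the list overlapped, among them Isg15, at 36.4 and 58.4 against 40.9, 25.3 and 36.1 CPM. The order was the same in other cells of these libraries. In Csf1r-expressing cells Igtp was at 85.7 and 93.1 CPM in control and 26.6, 25.3 and 27.1 CPM in HFD+F+CCl4 mice, and Irgm1 at 125 and 114 against 43.8, 51.5 and 45.6 CPM. Without control replicate 1, 0 of the 7 calls held (edgeR adjusted p 0.0708 to 0.354). Of the 7, 2 held without control replicate 2, and 6, 1 and 1 without HFD+F+CCl4 replicates 1, 2 and 3, and in these fits the median of the list was between -0.75 and -0.58 on the log2 scale.

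Some genes of lipid synthesis were lower in the CD3 cells of HFD+F+CCl4 mice. Of 21 genes of fatty acid and sterol handling, 1 rose (against 1.27% of all genes), 3 fell (against 1.11%) and 17 did not pass. The median log2 fold change was -0.44. Hmgcs1, an early enzyme of cholesterol synthesis, was at 44.0 and 46.7 CPM in control and 15.0, 17.0 and 16.1 CPM in HFD+F+CCl4 mice (-1.47 ± 0.23, edgeR adjusted p = 0.0173). Srebf1, the transcription factor of lipid synthesis, was at 41.7 and 62.7 against 25.9, 21.2 and 20.8 CPM (-1.18 ± 0.25, edgeR adjusted p = 0.0443). In both genes, both control mice were above all HFD+F+CCl4 mice. Fabp5, a fatty acid carrier, went the other way, at 40.6 and 48.1 against 133, 162 and 118 CPM (1.67 ± 0.31, edgeR adjusted p = 0.0271). The sterol enzyme gene Sqle, at 12.3 and 19.0 against 4.09, 3.53 and 7.5 CPM, did not pass (edgeR adjusted p = 0.171). In Csf1r-expressing cells Hmgcs1 was at 90.2 and 62.0 against 39.9, 31.0 and 41.5 CPM. None of the 4 calls held without control replicate 1 (edgeR adjusted p 0.124 to 0.204), HFD+F+CCl4 replicate 2 (0.0669 to 0.153) or HFD+F+CCl4 replicate 3 (0.06 to 0.159), 1 held without control replicate 2 (0.0373 to 0.146), and all 4 held without HFD+F+CCl4 replicate 1. The sterol regulatory element TCACNCCAC, searched in the same way, was in the RefSeq promoter of 331 of 27025 genes (1.22%) and, of the 14 listed genes with an entry, in that of Hmgcs1 only. The stretch is shown as the 1 match among the fallen genes, at chr13:119690189-119690247 (plus strand), with the match in capitals from 137 to 129 bases before the start.
Hmgcs1: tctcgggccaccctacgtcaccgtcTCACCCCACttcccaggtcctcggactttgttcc

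**Figure D4:**
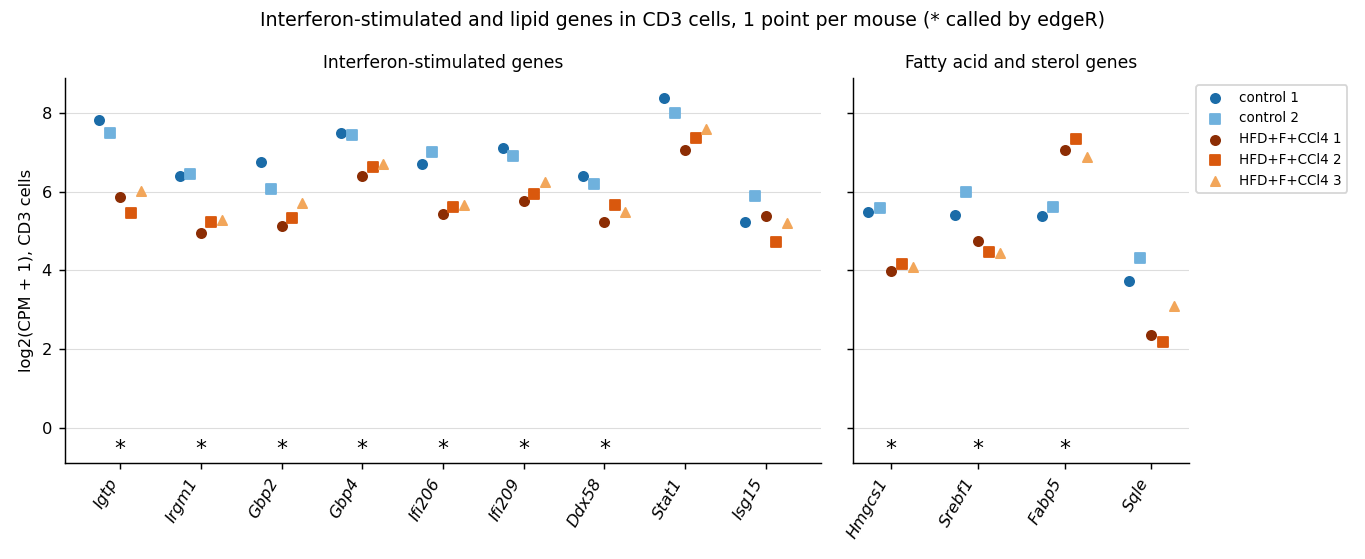
Level of 9 interferon-stimulated genes and 4 fatty acid and sterol genes in CD3 cells as log2(CPM + 1), with 1 point per mouse and a star at an edgeR adjusted p under 0.05. Both control mice lie above all HFD+F+CCl4 mice for Igtp, Irgm1 and Hmgcs1 and below them for Fabp5.

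Immediate early genes set 1 mouse apart. Of 21 genes of the AP-1 and immediate early list, 1 rose (against 1.27% of all genes), 0 fell and 20 did not pass. The median log2 fold change was 1.15. The risen gene, the transcription factor Egr2, was at 5.95 and 4.38 against 20.4, 20.2 and 16.1 CPM (1.74 ± 0.36, edgeR adjusted p = 0.0391), and its adjusted p was between 0.0521 and 0.194 without any 1 of the 5 mice. Jun, a subunit of AP-1, was at 68.7 and 33.6 CPM in control mice and at 800, 61.6 and 115 CPM in HFD+F+CCl4 mice, and its partner Fos at 17.8 and 7.29 against 437, 14.1 and 43.9 CPM. Both were high in HFD+F+CCl4 replicate 1 alone, and without that mouse the median of the list was 0.46. None of 13 heat shock, 10 MHC class II, 12 MHC class I, 15 glycolysis and 18 nuclear-encoded respiratory chain genes passed in CD3 cells (edgeR), with medians of 0.40, -0.24, 0.03, 0.31 and 0.22 on the log2 scale.

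Over all lymphocytes the mix of T and B cells enters the comparison. There, 5 regulatory T cell genes of 13 tested rose (against 0.875% of all genes), as did 1 of 16 cytotoxic and 2 of 19 helper T cell genes, and 0 of 15 checkpoint genes. 4 of 35 interferon-stimulated genes and 2 of 21 genes of fatty acid and sterol handling fell (against 0.792%). The 4 interferon-stimulated genes were Igtp, Irgm1, Ifi206 and Stat2, and Hmgcs1 was among the fallen sterol genes. Every HFD+F+CCl4 mouse was above both control mice in 9 of the 13 regulatory T cell genes (17.5% of all genes) and below them in 19 of the 35 interferon-stimulated genes (19.8% of all genes). The medians were 2.30 for the regulatory T cell, 2.90 for the checkpoint and -0.59 for the interferon-stimulated list, against -0.02 for all genes tested. With either control mouse or HFD+F+CCl4 replicate 2 left out, 0 calls of these regulatory T cell, interferon-stimulated and sterol lists held (edgeR adjusted p 0.0536 to 0.211). The cytotoxic call was lost with any 1 mouse left out (edgeR adjusted p 0.0587 to 0.194), and both helper calls with any 1 mouse left out other than HFD+F+CCl4 replicate 1 (0.0566 to 0.136). In all, 11 genes passed without control replicate 1, 11 without control replicate 2, 5 without HFD+F+CCl4 replicate 2, 61 without HFD+F+CCl4 replicate 3 and 183 without HFD+F+CCl4 replicate 1. The B cell identity list had 0 of 18 calls and a median of -1.16. The rule genes themselves are described without a test: Cd79a was at 661 and 485 CPM in control lymphocytes and at 335, 265 and 38.7 CPM in HFD+F+CCl4 lymphocytes, and Cd3e at 485 and 450 against 502, 857 and 1004 CPM.

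In CD79 cells the groups were less sharply told apart, with 28 such cells in HFD+F+CCl4 replicate 3 and 76 in HFD+F+CCl4 replicate 1. Without control replicate 1, 10 genes passed, 6 of them among the 57, and without HFD+F+CCl4 replicate 2, 14 passed, 10 of them among the 57. None of 18 B cell identity genes passed (edgeR), with a median log2 fold change of -0.27. Ms4a1, the B cell surface protein CD20, was at 1162 and 823 CPM in control and 649, 872 and 611 CPM in HFD+F+CCl4 mice. Immunoglobulin genes did not pass either (0 of 16, edgeR), with a median of 1.32. The kappa light chain Igkc was at 23511 and 14933 CPM against 29291, 69048 and 139605 CPM, and the joining chain Jchain, which plasma cells add to secreted IgM and IgA, at 1541 and 1009 against 1336, 4065 and 8234 CPM (edgeR adjusted p = 0.162 and 0.29). For Igkc the HFD+F+CCl4 mice were all above the control mice, with replicate 3, the mouse with the fewest CD79 cells, the highest. For Jchain the groups overlapped.

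Of the genes that rose in CD79 cells, Gpnmb and Clec4a3, which myeloid cells express, had the largest fold changes among those named by rule (6.11 and 3.94 on the log2 scale). The rule took only genes without overlap between the groups, so the separation of Il9r, Klf3 and Peli1 was set by it. Il9r, the receptor of IL-9, also rose (chromosome 11, 32187541 to 32200279, minus strand). It was at 10.8 and 9.76 CPM in control and at 117, 76.9 and 45.8 CPM in HFD+F+CCl4 mice. The groups did not overlap, and Il9r rose by 2.95 ± 0.38 on the log2 scale (edgeR adjusted p = 0.0084). In CD3 cells Il9r was at 2.04 and 4.38 against 1.36, 3.21 and 4.72 CPM. Klf3, a transcriptional repressor, was at 207 and 205 against 77.8, 94.1 and 45.8 CPM (-1.40 ± 0.27, edgeR adjusted p = 0.0457). Peli1, an E3 ubiquitin ligase of receptor signalling, was at 183 and 159 against 56.2, 54.9 and 84.0 CPM (-1.49 ± 0.25, edgeR adjusted p = 0.0238). For both, every HFD+F+CCl4 mouse was below both control mice. Without control replicate 1, the edgeR adjusted p was 0.198 for Il9r, 0.33 for Klf3 and 0.284 for Peli1. Il9r passed without each of the other 4 mice (0.0024 to 0.0452), Klf3 without HFD+F+CCl4 replicate 3 only (0.0479, otherwise 0.0837 to 0.122), and Peli1 not without HFD+F+CCl4 replicates 1 and 2 (0.0723 and 0.128). Of the interferon-stimulated list, 0 of 31 genes passed in CD79 cells, with a median of -0.17, and of the fatty acid and sterol list 0 of 19. Whether these lists differed between CD3 and CD79 cells was not tested.

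RNA of other cell types moved with the groups. In CD3 cells, 4 of 17 genes of the monocyte and macrophage list rose (C1qa, C1qb, Cd14 and Ms4a7), against 1.27% of all genes tested. From this list 0 fell and 13 did not pass, with a median log2 fold change of 3.32, although the cells were chosen without Csf1r. C1qb, a chain of complement C1q that liver macrophages make, was at 1.53 and 0 CPM in control and 290, 156 and 52.5 CPM in HFD+F+CCl4 mice. Summed over the list, macrophage RNA was at 197 and 951 CPM in control CD3 cells and at 2468, 1244 and 684 CPM in HFD+F+CCl4 mice, which overlapped. The 4 calls had an edgeR adjusted p of 0.208 to 0.321 without control replicate 1 and of 0.0633 to 0.145 without control replicate 2, and 3, 1 and 2 of them held without HFD+F+CCl4 replicates 1, 2 and 3. In CD79 cells 4 of 15 genes of this list rose and 7 of 22 of the liver-secreted list fell, and without control replicate 1 0 of these calls held (edgeR adjusted p 0.0725 to 0.404). Over all genes tested in CD79 cells, 0.315% rose and 0.376% fell. In CD3 cells, 0 of 22 genes of the liver-secreted (free RNA) list rose and 5 fell (Apoa2, Fgg, Mup3, Serpina1c and Serpina3k). The median was -2.23, and 1.11% of all genes tested fell. In 20 of 22 every HFD+F+CCl4 mouse was below both control mice, as in 17.7% of all genes. Mup3, of a family of near-identical genes between which reads may be split, was at 351 and 279 CPM against 21.8, 19.9 and 4.44 CPM. The sum of the list was at 5074 and 4915 against 5741, 3406 and 837 CPM and overlapped, as it holds Apoe, which macrophages also make, at 588 and 532 against 3774, 2013 and 579 CPM. Of the 5 calls, 0 held without control replicate 1 (edgeR adjusted p 0.0544 to 0.185), 1 without control replicate 2, and 5, 1 and 3 without HFD+F+CCl4 replicates 1, 2 and 3. Without the cells that had at least 1% liver-secreted UMIs, the macrophage list kept 3 of its 4 calls and the liver-secreted list all 5, at medians of 3.41 and -1.70. The part of macrophage RNA in other rises in CD3 cells, as of Tgfb1, Fabp5 and Casp1, was not tested.

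B cell transcripts were also found in CD3 cells, and more in control mice. Of 15 tested B cell identity genes 7 fell, against 1.11% of all genes tested, with a median log2 fold change of -2.54. From the 13 immunoglobulin and plasma cell genes 5 fell, with a median of -2.94. Ms4a1, which encodes the B cell surface protein CD20, was at 8.16 and 35 CPM in control and 2.72, 1.92 and 1.11 CPM in HFD+F+CCl4 mice. Igkc was at 302 and 1173 CPM against 154, 174 and 63.6 CPM, so control replicate 2, the library with the largest class of cells with UMIs of both sets, was the highest. Of 10 T cell receptor and signalling genes tested in CD79 cells, 1 fell (0.376% of all genes) and 9 did not pass. The CD79 cells summed to 4856460 and 254831 UMIs in control and to 210083, 658788 and 142627 in HFD+F+CCl4 mice. Raw UMI counts of the groups are thus not on the same scale. The gene that fell was Trbc1, with 181 UMIs in control and 1 UMI in HFD+F+CCl4 CD79 cells, and its call was lost with any 1 mouse left out (edgeR adjusted p 0.0561 to 0.15). Of the 7 B cell identity calls, 0 held without control replicate 2 (edgeR adjusted p 0.0683 to 0.176), HFD+F+CCl4 replicate 2 (0.0613 to 0.14) or HFD+F+CCl4 replicate 3 (0.0832 to 0.163), 1 held without control replicate 1 (0.0477 to 0.214), and all 7 held without HFD+F+CCl4 replicate 1. Of the 5 immunoglobulin calls, between 1 and 4 held with any 1 mouse left out. The part that such transcripts have in the other differences between the groups was not tested.

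**Figure D5:**
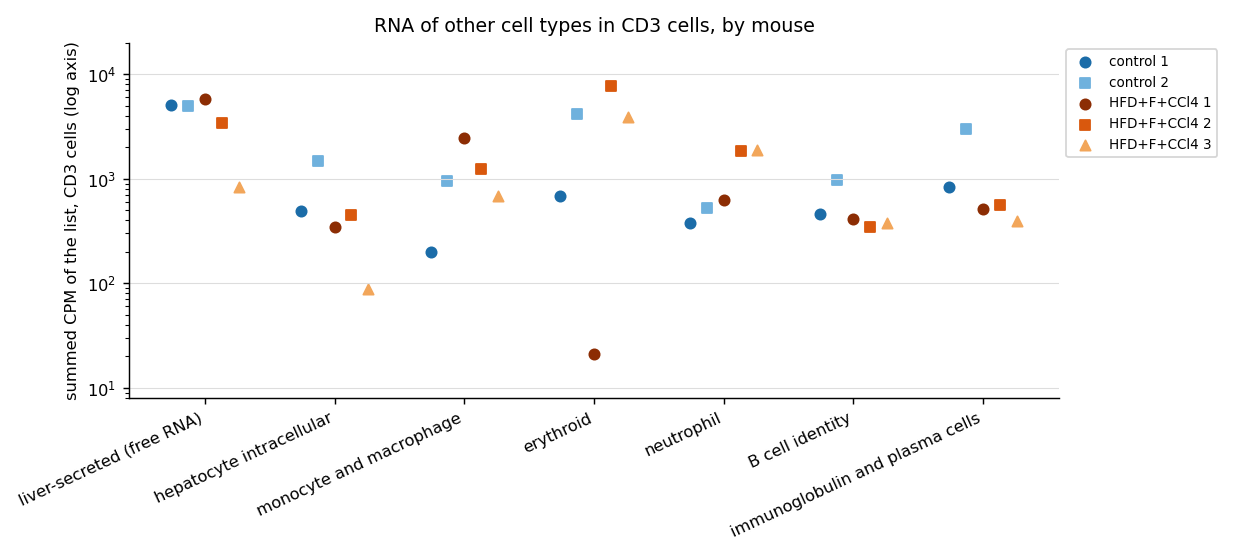
Summed CPM of 7 lists of genes of other cell types in CD3 cells, on a log axis, with 1 point per mouse. The monocyte and macrophage list runs from 197 CPM in control replicate 1 to 2468 CPM in HFD+F+CCl4 replicate 1, and the liver-secreted list from 837 CPM in HFD+F+CCl4 replicate 3 to 5741 CPM in HFD+F+CCl4 replicate 1.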

How the data were processed

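Single-cell libraries of liver from 8 mice were analysed as 1 matrix of UMI counts, deposited by the authors after Cell Ranger (the file header and the study's methods name different versions) and bcl2fastq 2.20, for 55450 genes and 88581 barcodes. The barcode suffix gives the mouse. Members and gene lists were chosen with earlier results of these data known. Kept cells had over 500 genes and under 25% mitochondrial UMIs. Raw UMIs were summed per mouse and filtered with filterByExpr (minimum count 10) over all 8 mice. With only the 5 mice compared, 4356 in place of 8247 genes were tested in CD79 cells. In CD3 cells it was 12301 in place of 12176. TMM-scaled sums of all 8 mice, in 3 groups, entered edgeR 4.0.16 (quasi-likelihood test, R 4.3.3), and HFD+F+CCl4 was contrasted with control, with Benjamini-Hochberg adjustment over all genes tested at 0.05. Beyond the lists, the 10 largest rises and falls were named per comparison among called genes with an average log2 CPM over 5 and groups that did not overlap, predicted genes aside. Shares were compared by exact two-sided permutation tests over mice (scipy 1.17.1), which cannot go below p = 0.1 with 2 control mice. Binomial intervals (Clopper-Pearson, 95%) and the limit of 3 counts for a share of 0 cover counting error only. Doublets were scored in each library with Scrublet (scanpy 1.11.5). As an alternative, the cells ranked highest by this score were left out, without use of its automatic calls. Their number was set in advance, at 0.8% of a library's kept cells for every 1000 kept cells. Promoter sequences are from RefSeq (GRCm38.p6). Changes were simulated in 200 genes with an average log2 CPM over 5, with the same mean in all mice otherwise. Of 4-fold changes, 96% were recovered in CD3 cells (11688 genes), 91% in lymphocytes (12788 genes) and 76% in CD79 cells (7742 genes). Of 2-fold changes, 32%, 15% and 7% were recovered, and 11, 14 and 6 unchanged genes were called. These shares do not hold for genes with lower counts or with a wider spread between mice. Results of some genes are not reported here.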

Additional observations from a re-analysis of the deposited data

How the results depend on the processing

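The number of called genes depended on the processing. For all lymphocytes, 221 calls became 127 with library size only, 1815 with no filter beyond 1 count, 724 with DESeq2, 144 with only the 5 mice compared, 4 with a replicate block and 143 without cells with at least 1% liver-secreted UMIs, and leaving out 1 mouse gave 5 (HFD+F+CCl4 replicate 2) to 183. For CD3 cells, 290 became 1319 with no filter, 467 with DESeq2 and 27 with the block, and leaving out 1 mouse gave 15 (control replicate 1) to 415 (HFD+F+CCl4 replicate 1). For CD79 cells, 57 became 356 with no filter, 120 with DESeq2, 37 with only the 5 mice, 31 with the block, 27 over 1000 genes per cell, 36 after thinning and 95 when mixed cells were assigned by majority, an alternative chosen after seeing the data, and leaving out 1 mouse gave 10 (control replicate 1) to 51. The cause was not tested. With library size only, the higher and lower calls were 54 and 73 for lymphocytes (main 116 and 105) and 19 and 35 for CD79 cells (main 26 and 31), whose median over all genes moved to -0.16. Replicate numbers are shared between groups, and the block pairs mice by number only. For lymphocytes, deviations of same-numbered control and HFD+F+CCl4 mice from their group means correlated at r = -0.146 and 0.0201 across 4854 genes. With 2 control mice, the deviations of 1 mirror those of the other. These correlations therefore cannot decide whether mice of the same number belong together. Of 67 named genes called in CD3 cells, 14 passed with the block. None changed direction, but they were chosen as called in the same mice. Leaving out 1 mouse moved the difference in lymphocyte share between -55.4 and -15.9 percentage points, and that in CD79 share between -13.9 and -1.29.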
